A study of Mus musculus with 8 samples.

Results

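The leukocyte integrins examined here were 8 genes, the α subunits Itgam, Itgal, Itgad, Itgae and Itga4, the β subunits Itgb2 and Itgb7, and the integrin activator Fermt3. They were named by symbol, with earlier results of these data known, and were 8 of the 21859 gene rows in the deposited tables. Of the 8, 7 passed the filter on low counts together with 15077 genes in all, and Itgad did not. Whole aortas of 4 male ApoE-/- mice and 4 male wild-type (WT) C57BL/6 mice were compared, all 40 weeks old and fed a normal chow diet, with 1 stranded, ribodepleted total RNA library per mouse. The ApoE deletion is carried in the germline and so affects every cell, and a whole aorta holds leukocytes, smooth muscle, endothelium, adventitia and adhering tissue in 1 sample. The sources used here do not say whether the genotypes were littermates. The study compared the genotypes to find genes that differ in the atherosclerosis-prone vessel.

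Integrins are α and β chains that reach the cell surface only as pairs. Itgb2 encodes CD18, the β chain of leukocytes, which pairs with CD11a (Itgal, giving LFA-1), CD11b (Itgam, giving Mac-1), CD11c (Itgax) or CD11d (Itgad). Itga4 pairs with Itgb1 to form VLA-4, a receptor for the endothelial protein VCAM-1, or with Itgb7 to form the gut-homing receptor for MAdCAM-1, while Itgae pairs only with Itgb7 and binds E-cadherin. Fermt3 encodes kindlin-3, the kindlin of blood cells, which binds the cytoplasmic tail of β chains and, together with talin, switches integrins to the binding state. In arteries these receptors carry monocytes and lymphocytes from rolling to firm arrest and passage through the endothelium.

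The stretches on which this switch turns are shown as annotated in GENCODE M21 (mouse, GRCm38). Every α chain of the family carries just inside the membrane a conserved stretch that holds it to its β chain at rest, and its codons are in capitals here, with the 6 coding bases before and after it in lower case.
Itgam, chr7:128116844-128117329, exons 29 and 30: aagcttGGCTTTTTCAAGCGGcagtac
Itgax, chr7:128149212-128150122, exons 29 and 30: aaggctGGTTTCTTCAAACGTcagtac
Itgad, chr7:128204643-128205085, exons 30 and 31: aagcttGGCTTCTTCAAACGTcagtat
Itgal, chr7:127330237-127333475, exons 30 and 31: aaggttGGCTTCTTCAAACGGaacctg
Itgae, chr11:73145649-73147074, exons 30 and 31: aagtgtGGCTTTTTCAAAAGAaaatat
Itga4, chr2:79325692-79326543, exons 27 and 28: aaggctGGATTCTTTAAAAGAcagtac
In all 6 genes the window ran across the junction of the last pair of exons, so that the coordinates include an intron. The capitals of Itgad differed from those of Itgal and Itgax at 1 of 15 bases, and those of Itgam and Itga4 at 6. In the β chains the membrane-distal motif to which kindlins bind is in capitals, again with the 6 coding bases on each side.
Itgb2, chr10:77565211-77565234, exon 16: gtcatgAACCCCAAGTTTgctgaa
Itgb7, chr15:102216208-102216231, exon 15: actgtcAACCCCCGCTTCcaaggg
These capitals differed at 4 of 12 bases. The window of Itgb2 lies on the plus strand of chromosome 10 and that of Itgb7 on the minus strand of chromosome 15, and both are in the last exon of their gene.

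The members lie on 6 chromosomes (GENCODE M21, GRCm38). On the plus strand of chromosome 7, Itgal is at chr7:127296260-127335138, Itgam at chr7:128062640-128118491 and Itgad at chr7:128154376-128223816, with Itgax between Itgam and Itgad. All of these are about 108 Mb from Apoe on the same chromosome. Itgb2 is at chr10:77530252-77565708, Itgae at chr11:73090583-73147446 and Itga4 at chr2:79255426-79333123, each on the plus strand, and Itgb7 at chr15:102215995-102231944 and Fermt3 at chr19:6998958-7019469, both on the minus strand. Itgae, Itga4 and Fermt3 overlap a gene on the opposite strand, namely Haspin, Cerkl and Trpt1, whose pairs a stranded count keeps apart. Itgad overlaps 4 genes on the opposite strand and, on its own strand, the processed pseudogene Gm17831, which covers 330 of its 4510 exon bases and was not analysed here. Strand does not separate this pair, and the part of Gm17831 in the count of Itgad was not tested.

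Promoter sequence was found in RefSeq windows for build GRCm38.p6 for 4 of the 8 members (Itgam, Itga4, Itgb7 and Fermt3). The 250 bases before the start of Itgam and Fermt3 are printed because the levels of these genes went together over the mice, as described further on. Capitals mark the letters GAGGAA, the core bound by the myeloid factor PU.1, and TGTGGT, the core bound by RUNX factors, on either strand.
Itgam, chr7:128062390-128062639, plus strand: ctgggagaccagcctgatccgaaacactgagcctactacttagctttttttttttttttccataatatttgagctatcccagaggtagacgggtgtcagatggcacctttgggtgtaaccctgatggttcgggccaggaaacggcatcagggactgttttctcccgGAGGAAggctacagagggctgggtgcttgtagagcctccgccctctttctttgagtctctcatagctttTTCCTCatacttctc
Fermt3, chr19:7019470-7019719, minus strand: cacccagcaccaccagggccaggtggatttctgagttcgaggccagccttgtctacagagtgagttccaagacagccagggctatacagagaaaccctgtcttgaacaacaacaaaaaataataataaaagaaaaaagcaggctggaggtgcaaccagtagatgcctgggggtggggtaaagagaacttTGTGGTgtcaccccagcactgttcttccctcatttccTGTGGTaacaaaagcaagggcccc
The Itgam window held the PU.1 core on the plus strand 84 bases and on the minus strand 15 bases before the start, and no RUNX core. The Fermt3 window held the RUNX core 61 and 24 bases before the start, and no PU.1 core. The Itga4 window held 1 RUNX core, 60 bases before its start on the minus strand, and the Itgb7 window held neither. Of all 32851 windows of this length, 23.3% held the PU.1 core and 14.0% the RUNX core, so these matches describe the sequences and nothing was drawn from them about either factor.

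Between 23240995 and 23940156 read pairs were counted on genes in the ApoE-/- libraries and between 18375898 and 21664598 in the WT libraries. Apoe itself, measured as the check of the labels, stood at 14.7 to 36.3 CPM (gene counts relative to the TMM-scaled library total) in the knockout libraries and 536 to 857 CPM in the others (log2 fold change -4.83, edgeR adjusted p = 0.0141, and 0.00336 to 0.0838 with each mouse left out). Smooth muscle markers were abundant in every library, with Acta2 at a mean of 4312 CPM in ApoE-/- aortas and 4857 CPM in WT aortas, as the label aorta requires. The ApoE-/- mice differed among themselves, with replicates 1 and 4 at the ends. In replicate 1 summed smooth muscle markers were 4678 CPM against 11844 to 19232 CPM in the other 3, macrophage markers 423 CPM against 855 to 1777 CPM, and B and plasma cell markers 64.8 CPM against 14.8 to 42.8 CPM. In replicate 4 macrophage markers were 1777 CPM against 423 to 979 CPM, platelet markers 53.9 CPM against 20.8 to 24.1 CPM, and cardiac muscle markers 160 CPM against 335 to 344 CPM. By Dixon's 95% critical value the platelet and cardiac muscle sums of replicate 4 were outlying and no sum of replicate 1 was. A higher level in a whole aorta may be more leukocytes or more RNA per leukocyte, and these cannot be told apart here.

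Itgb2, Itgam and Itgal, the tested members of the β2 family, stood higher in every ApoE-/- aorta than in any WT aorta, without passing the main test. Itgb2, the common β chain, was at 17.0, 27.3, 38.1 and 66.3 CPM in ApoE-/- replicates 1 to 4 and at 11.7, 9.83, 7.76 and 8.57 CPM in WT replicates 1 to 4. The lowest ApoE-/- mouse was above the highest WT mouse, and ApoE-/- replicate 1 was the nearest to WT. The difference was 3.92-fold (95% interval 2.10 to 7.34; log2 fold change 1.97, SE 0.39). With edgeR's quasi-likelihood test its adjusted p was 0.0709, which missed the threshold of 0.05, and with DESeq2, the tool the study used, it was 8.99e-05.

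Itgam, the CD11b chain of monocytes, macrophages and neutrophils, was at 4.51, 5.29, 6.49 and 9.72 CPM in the ApoE-/- mice and at 2.52, 2.39, 1.44 and 2.35 CPM in the WT mice. Every ApoE-/- mouse was above every WT mouse, and ApoE-/- replicate 4 was the highest, as for Itgb2. The gene was 2.98-fold higher (95% interval 1.85 to 4.79; log2 fold change 1.58, SE 0.30), with an edgeR adjusted p of 0.0645 and a DESeq2 adjusted p of 0.000199. The count of Itgam has a limit of its own. Gm49368, a gene listed separately in the files, lies on the same strand and covers 68.7% of the exon bases of Itgam (3450 of 5024), and its own count was 0 to 4 read pairs per library. A pair that falls in shared exons fits both genes. How the counting treated such pairs was not tested, and the level of Itgam may be understated in all 8 mice.

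Itgal, the CD11a chain found on most leukocytes and foremost on lymphocytes, was at 6.58, 3.80, 4.62 and 4.56 CPM in ApoE-/- aortas and 2.34, 2.57, 1.61 and 2.30 CPM in WT mice. The genotypes did not overlap, but the order of the ApoE-/- mice was another: replicate 1, the lowest in Itgb2 and Itgam, was the highest in Itgal. The gene was 2.21-fold higher (95% interval 1.51 to 3.24; log2 fold change 1.15, SE 0.24), with an edgeR adjusted p of 0.0787 and a DESeq2 adjusted p of 0.00126.

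Itgad, the CD11d chain, was barely detected. It had 5, 2, 2 and 13 read pairs in the ApoE-/- libraries and 0, 1, 2 and 2 in the WT libraries. In WT replicate 1 a count of 0 allows up to 0.138 CPM, the level of 3 read pairs. All 4 WT libraries and 2 ApoE-/- libraries were at or under 3 pairs, so Itgad was not tested and no fold is given. Of the 50-base words in its principal transcript 9.81% also occur in Itgax, from which it is separated by 3.72 kb on chromosome 7. Reads drawn from these words match both genes. Pairs aligned to several places were left out of the gene counts, and how this acts on the count of Itgad was not tested.

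Itgax, the remaining chain that pairs with Itgb2, is not among the 8 members but shares its β chain and locus, 11.1 kb beyond Itgam. It marks dendritic cells and some macrophages. It was at 7.31, 26.2, 45.4 and 55.0 CPM in ApoE-/- aortas and at 1.79, 1.83, 1.16 and 1.34 CPM in WT mice, without overlap. It rose 21.7-fold (95% interval 8.23 to 57.5; log2 fold change 4.44, SE 0.61; edgeR adjusted p = 0.0380). The edgeR call held without ApoE-/- replicate 1 (adjusted p = 0.00136) and was lost without any other mouse (0.0584 to 0.169) and with the replicate number as a block (0.167). Its interval lay wholly above those of Itgb2, Itgam and Itgal, and the difference between the changes was not tested.

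**Figure D1:**
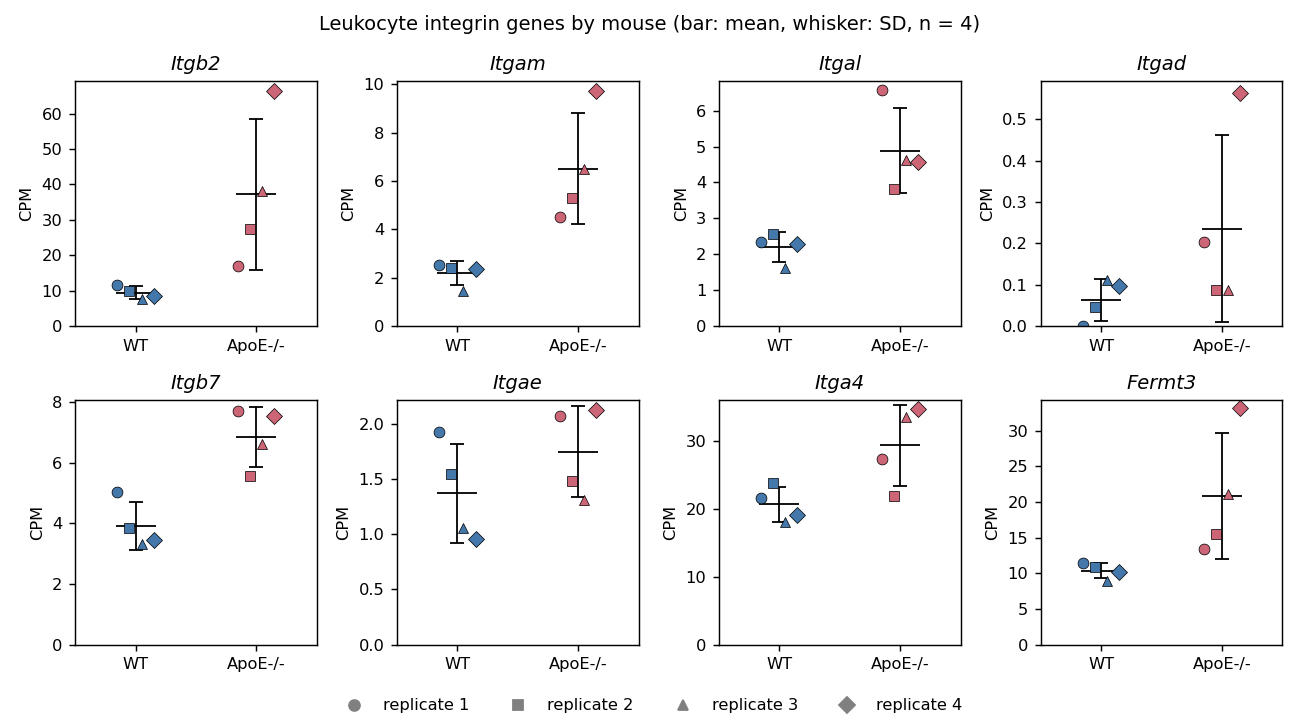
CPM (y axis, linear, from 0) of the 8 leukocyte integrin genes in each of 4 WT and 4 ApoE-/- aortas. Points are mice with the marker giving the replicate number, the bar is the mean and the whisker the SD. Genotypes do not overlap for Itgb2, Itgam, Itgal, Itgb7 and Fermt3, and they overlap for Itgad, Itgae and Itga4.

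Among the chains of the α4 and β7 receptors, Itgb7 did not overlap between genotypes and its α partners did. Itgb7 was at 7.71, 5.55, 6.62 and 7.55 CPM in ApoE-/- aortas and 5.05, 3.84, 3.32 and 3.45 CPM in WT mice. ApoE-/- replicate 1 was the highest, as for Itgal, but stood only just above replicate 4, at 190 against 174 read pairs. The gene was 1.75-fold higher (95% interval 1.28 to 2.39; log2 fold change 0.81, SE 0.20), with an edgeR adjusted p of 0.117 and a DESeq2 adjusted p of 0.00718.

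Itga4 was at 27.4, 21.9, 33.5 and 34.6 CPM in ApoE-/- aortas and 21.6, 23.9, 18.1 and 19.1 CPM in WT mice. ApoE-/- replicate 2 lay below WT replicate 2, so the groups overlapped. The fitted difference was 1.42-fold (95% interval 1.08 to 1.86; log2 fold change 0.50, SE 0.17) and did not pass in edgeR (adjusted p = 0.264) or DESeq2 (adjusted p = 0.147). Its partner Itgb1, which most cells of the vessel wall make, had a log2 fold change of 0.03 (95% interval -0.61 to 0.67, edgeR adjusted p = 0.985).

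Itgae, the CD103 chain of tissue-resident T cells and a class of dendritic cells, was at 2.07, 1.49, 1.31 and 2.13 CPM in ApoE-/- aortas and 1.93, 1.54, 1.05 and 0.957 CPM in WT mice. These are 19 to 51 read pairs per library, and the groups overlapped widely. The fitted fold was 1.27 with a 95% interval of 0.791 to 2.04 (edgeR adjusted p = 0.777), and the interval spans both directions.

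Fermt3, the activator, was at 13.4, 15.5, 21.1 and 33.2 CPM in ApoE-/- aortas and 11.4, 10.8, 8.97 and 10.2 CPM in WT mice. The mice stood in the same order as for Itgb2 and Itgam within the ApoE-/- group, with replicate 1 lowest and replicate 4 highest. The difference was 2.01-fold (95% interval 1.29 to 3.12; log2 fold change 1.01, SE 0.28), with an edgeR adjusted p of 0.166 and a DESeq2 adjusted p of 0.0271. The other kindlins and talin did not pass. Fermt2, the kindlin of most tissues, had a log2 fold change of 0.09 (edgeR adjusted p = 0.912), Fermt1, the kindlin of epithelia, -0.57 (0.580) and Tln1 0.09 (0.951).

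By the main test, edgeR, 0 of the 7 tested members passed, where 0.464% of all tested genes passed in either direction and 0.371% were called higher in ApoE-/- mice. At an unadjusted p under 0.05, 6 of the 7 were higher against 7.19% of all genes, and with DESeq2 5 of the 7 were called higher against 3.12%. Groups did not overlap for 5 members, higher in ApoE-/- mice in each case, against 5.41% of all tested genes. Every tested member had a positive fold change, as did 58.0% of all tested genes, with a median of 1.01 on the log2 scale beside 0.05 over all tested genes. Because the members were named with results known, these counts are a description and no independent evidence of a direction.

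The call on the members turned on 1 library. Without ApoE-/- replicate 1, edgeR called Itgb2 (adjusted p = 0.0104), Itgam (0.0180) and Fermt3 (0.0425) higher, 3 of 7 against 2.75% of all genes called higher and 3.91% called in either direction. Leaving out any other mouse left 0 of the 7 called, and few of all tested genes were called in the same fits, namely 0.112% without ApoE-/- replicate 2, 0.0132% without ApoE-/- replicate 4, 0.0131% without WT replicate 1, 0.00657% without WT replicate 3 and 0 genes without any of the other 3. With DESeq2, Itgam, Itgal and Itgb2 were called in 8 of 8 such fits, Itgb7 in 5, Fermt3 in 2 and Itga4 in 1.

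**Figure D2:**
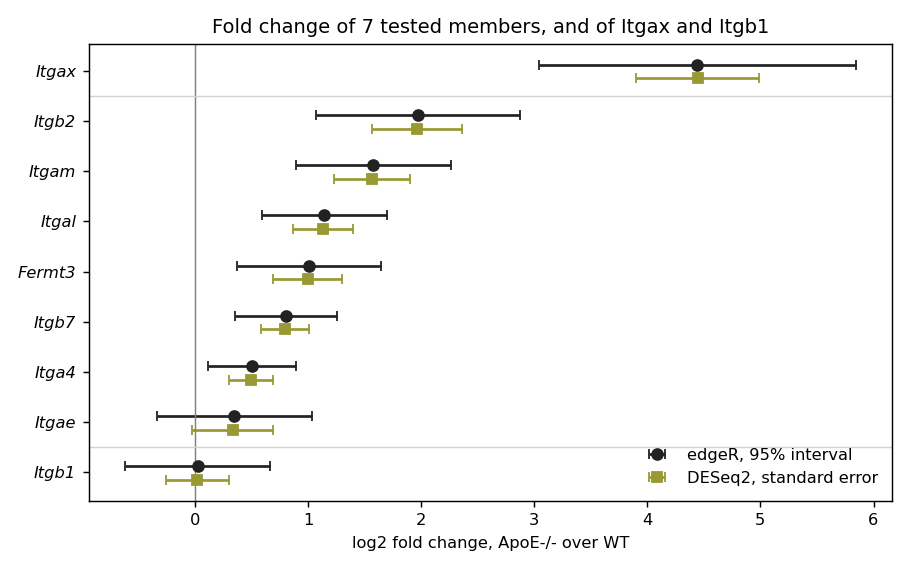
Log2 fold change, ApoE-/- over WT (x axis), of the 7 tested members and of Itgax and Itgb1 (y axis). Circles are edgeR estimates with 95% intervals and squares DESeq2 estimates with standard errors. The members run from 1.97 for Itgb2 to 0.35 for Itgae, below Itgax at 4.44 and above Itgb1 at 0.03, and of the members only the edgeR interval of Itgae includes 0.

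Levels were compared between genes per kilobase of exon (RPKM, the CPM divided by the length of all annotated exons). In WT aortas Itgb2 was first at 3.10 ± 0.56 RPKM (SD, n = 4), followed by Fermt3 at 1.79 ± 0.18, Itga4 at 1.48 ± 0.19, Itgb7 at 1.41 ± 0.28, Itgam at 0.433 ± 0.099, Itgal at 0.336 ± 0.063, Itgae at 0.299 ± 0.099 and Itgad at 0.0140 ± 0.0112. Of these neighbours, Itgb2 lay apart from Fermt3, Itgb7 from Itgam and Itgae from Itgad, and the ranges of the others overlapped. Within single WT mice Fermt3 was above Itga4 and Itgam above Itgal in 4 of 4, and Itga4 above Itgb7 and Itgal above Itgae in 3. In ApoE-/- aortas the order was Itgb2 at 12.2 ± 6.96 RPKM, Fermt3 at 3.60 ± 1.53, Itgb7 at 2.48 ± 0.36, Itga4 at 2.10 ± 0.42, Itgam at 1.29 ± 0.46, Itgal at 0.744 ± 0.180, Itgae at 0.381 ± 0.090 and Itgad at 0.0522 ± 0.0501. There each gene from Itgb2 to Itgam overlapped in range with the next in order, while Itgal lay above Itgae and Itgae above Itgad. Within single ApoE-/- mice Itgb2 was above Fermt3 and Itga4 above Itgam in 4 of 4. Fermt3 was above Itgb7, Itgb7 above Itga4 and Itgam above Itgal in 3. The place of Itgam and Fermt3 in this order depends on the length used. Divided by the 1574 exon bases that Itgam does not share with Gm49368, Itgam came to 1.38 RPKM in WT mice and 4.13 RPKM in ApoE-/- mice; in ApoE-/- mice this placed it directly below Itgb2. With the longest coding transcript as the length, Fermt3 came to 4.00 RPKM in WT mice, above Itgb2 at 3.19. Their ranges overlapped, though Fermt3 was above Itgb2 in 4 of 4 WT mice.

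Because a pair of chains acts together, the ratio of their counts within a library was compared, which does not depend on library size. The log2 ratio of Itgal to Itgb2 was -1.36, -2.84, -3.04 and -3.86 in the ApoE-/- mice and -2.31, -1.92, -2.25 and -1.89 in the WT mice. In 3 ApoE-/- mice CD11a was lower relative to the common β chain than in any WT mouse, and in ApoE-/- replicate 1 it was higher than in any. The mean differed by -0.68 (two-sided exact permutation test over 70 assignments, p = 0.229, adjusted over 6 ratios 0.274). Without ApoE-/- replicate 1 it differed by -1.15 (exact permutation p = 0.0286, the smallest that 3 against 4 mice allow, adjusted 0.171), and without ApoE-/- replicate 4 by -0.32. For Itgam to Itgb2 the ratio was -1.91, -2.36, -2.55 and -2.77 in ApoE-/- aortas and -2.20, -2.03, -2.41 and -1.86 in WT mice, a difference of -0.27 (exact permutation p = 0.229, adjusted 0.274) that moved to -0.43 without ApoE-/- replicate 1 and to -0.15 without ApoE-/- replicate 4.

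The ratio of Itgae to Itgb7 was -1.89, -1.89, -2.32 and -1.82 in ApoE-/- aortas and -1.38, -1.30, -1.63 and -1.82 in WT mice. The groups met only at ApoE-/- replicate 4 and WT replicate 4, the difference was -0.44, and the test did not pass (exact permutation p = 0.0571, adjusted 0.274). With 2 counts added in place of 0.5 the groups no longer met, at a difference of -0.46 (exact permutation p = 0.0286, adjusted 0.171). Itga4 to Itgb7 differed by -0.32 (p = 0.114, exact permutation) and Itga4 to Itgb1 by 0.53 (p = 0.200, exact permutation), each with an adjusted p of 0.274. The latter moved to 0.29 without ApoE-/- replicate 1 and to 0.83 without ApoE-/- replicate 2. Itgad to Itgb2, from few counts, differed by -0.35 (exact permutation p = 0.714, adjusted 0.714), and by -0.96 with 2 counts added, so that its size depends on the counts added. The smallest p that 4 against 4 mice allow is 0.0286, and with adjustment over 6 ratios at least 4 of them would have to reach it for any to pass, so the adjusted values say little about a single ratio.

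**Figure D3:**
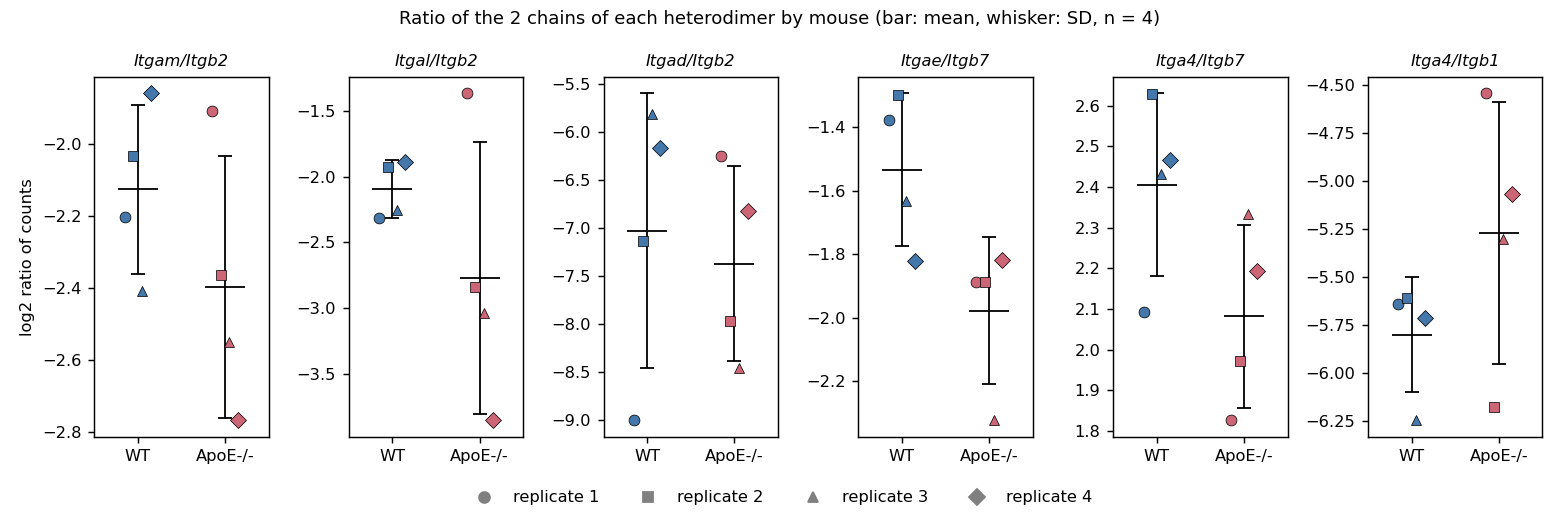
Log2 ratio of the counts of the 2 chains of each heterodimer (y axis, a separate scale for each panel) in each WT and ApoE-/- mouse, with 0.5 counts added to each gene. Points are mice, the bar is the mean and the whisker the SD. Ranges of the genotypes overlap in all 6 panels, and ApoE-/- replicate 1 is the highest ApoE-/- mouse for Itgam/Itgb2, Itgal/Itgb2, Itgad/Itgb2 and Itga4/Itgb1.

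The members were next set against 6 genes of all leukocytes (Ptprc, Coro1a, Laptm5, Cd53, Lcp1 and Arhgdib), whose mean log2 CPM was 1.44 higher in ApoE-/- than in WT mice. Among these Ptprc, which encodes CD45, rose from 25.9 ± 3.15 CPM in WT to 73.1 ± 20.7 CPM in ApoE-/- aortas and Lcp1, the actin-bundling protein of leukocytes, from 21.6 ± 4.17 to 82.2 ± 33.8 CPM (SD, n = 4, edgeR adjusted p = 0.0380 and 0.0462). Both edgeR calls were lost without any 1 mouse other than ApoE-/- replicate 1 (adjusted p from 0.05005 to 0.156 for Ptprc and from 0.0584 to 0.183 for Lcp1) and with the replicate block (0.115 and 0.186). Relative to this mean, Itgam differed by 0.07 between genotypes and Itgb2 by 0.37, and their groups overlapped, as did those of Itgal (-0.33) and Itgb7 (-0.64). Fermt3 (-0.52), Itga4 (-0.95) and Itgae (-1.08) were lower relative to it in every ApoE-/- mouse than in any WT mouse. Itgax was higher by 2.61 without overlap. For Fermt3 the values ran from -1.19 to -0.99 in ApoE-/- aortas and from -0.61 to -0.41 in WT mice, a narrow spread within each genotype. The log2 fold changes of the 6 reference genes themselves ran from 0.45 to 1.96. Those of Fermt3 (1.01) and Itga4 (0.50) lie within that range, so their place depends on the gene used for comparison. How many of all tested genes lie lower than the mean of the 6 in this way was not counted. These differences are a description with no test.

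Within genotypes the members did not all go together over the mice. After the mean of each genotype was subtracted, Pearson's r over the 8 mice was 0.98 between Itgb2 and Fermt3, 0.89 between Itgb2 and Itgam and 0.91 between Itgam and Fermt3. Itgal went with Itgb7 (r = 0.63) and Itgae with Itgb7 (r = 0.86), while Itgal and Itgb2, the chains of LFA-1, had an r of -0.24. This last value leans on ApoE-/- replicate 1, the lowest ApoE-/- mouse in Itgb2 (17.0 CPM) and the highest in Itgal (6.58 CPM). It was not computed without that mouse. Itga4 stood between, with an r of 0.73 to Fermt3 and 0.59 to Itgb7. These coefficients describe 8 libraries centred on their genotype means, with no test.

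Sums of cell type markers were set beside the members, and they did not all go one way. Summed macrophage markers (8 of 8 tested, 7 without overlap and higher, Fcgr1 past the edgeR test with a log2 fold change of 2.32 and adjusted p = 0.0355 that rose to between 0.05005 and 0.146 without any 1 mouse other than ApoE-/- replicate 1, against 5.41% and 0.371% of all tested genes) ranged from 423 to 1777 CPM in ApoE-/- aortas and from 366 to 435 CPM in WT mice. Summed T cell markers ranged from 8.22 to 13.4 CPM against 5.10 to 7.66 CPM (9 listed, 8 with a row, 7 tested, 0 called), and B and plasma cell markers from 14.8 to 64.8 CPM against 11.5 to 29.9 CPM (5 of 6 tested, 0 called). The macrophage and the B and plasma cell sums overlapped between genotypes. ApoE-/- replicate 4, the highest in Itgb2, Itgam and Fermt3, was the highest ApoE-/- mouse in pan-leukocyte, macrophage, T cell, mast cell, platelet, neutrophil, endothelium and perivascular fat sums alike. ApoE-/- replicate 1, the highest in Itgal and only narrowly so in Itgb7, was the highest in B and plasma cell markers. That sum was mostly Jchain (32.3 ± 17.9 CPM in ApoE-/- aortas against 17.9 ± 6.73, SD, n = 4 each). ApoE-/- replicate 1 was also the highest in NK cell markers (2.72 against 1.79 to 2.10 CPM in the other ApoE-/- mice). In T cell markers it was not, at 11.6 CPM against 13.4 CPM in replicate 4. Neutrophil markers were near the limit of detection, at 2.48 to 9.55 CPM in sum against 2.01 to 2.98 CPM, and 7 of the 9, among them Ly6g, Mpo and S100a8, were too low to test. NK cell markers summed to 1.79 to 2.72 CPM against 0.562 to 1.70 CPM, with 1 of 5 tested. No marker with a row in the tables used here was at 0 in all 4 libraries of either genotype. Summed markers of mast cells were at 27.1 to 89.8 against 27.1 to 56.5 CPM, of platelets at 20.8 to 53.9 against 20.5 to 30.6 CPM, of dendritic cells at 64.3 to 74.3 against 78.8 to 93.4 CPM and of perivascular fat at 881 to 3358 against 1940 to 5396 CPM. Those of endothelium were at 1670 to 2508 against 2404 to 2893 CPM and of cardiac muscle at 160 to 344 against 419 to 737 CPM. Summed pan-leukocyte markers were at 218 to 462 CPM in ApoE-/- aortas against 78.7 to 112 CPM in WT mice. The sums did not overlap between genotypes for pan-leukocyte, T cell and NK cell markers, higher in ApoE-/- aortas. Nor did they for dendritic cell and cardiac muscle markers, lower in ApoE-/- aortas. The dendritic cell sum was mostly Zbtb46, at 50.3 ± 6.44 CPM in ApoE-/- aortas against 67.1 ± 6.05 (SD, n = 4 each), and Zbtb46 and Clec9a were lower without overlap, as 3.3% of all tested genes were. The other 4 of the 6 dendritic cell markers had positive log2 fold changes, beside 58.0% of all tested genes, and edgeR called 0 of the 6. The part of any of these in the differences of the members was not tested.

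**Figure D4:**
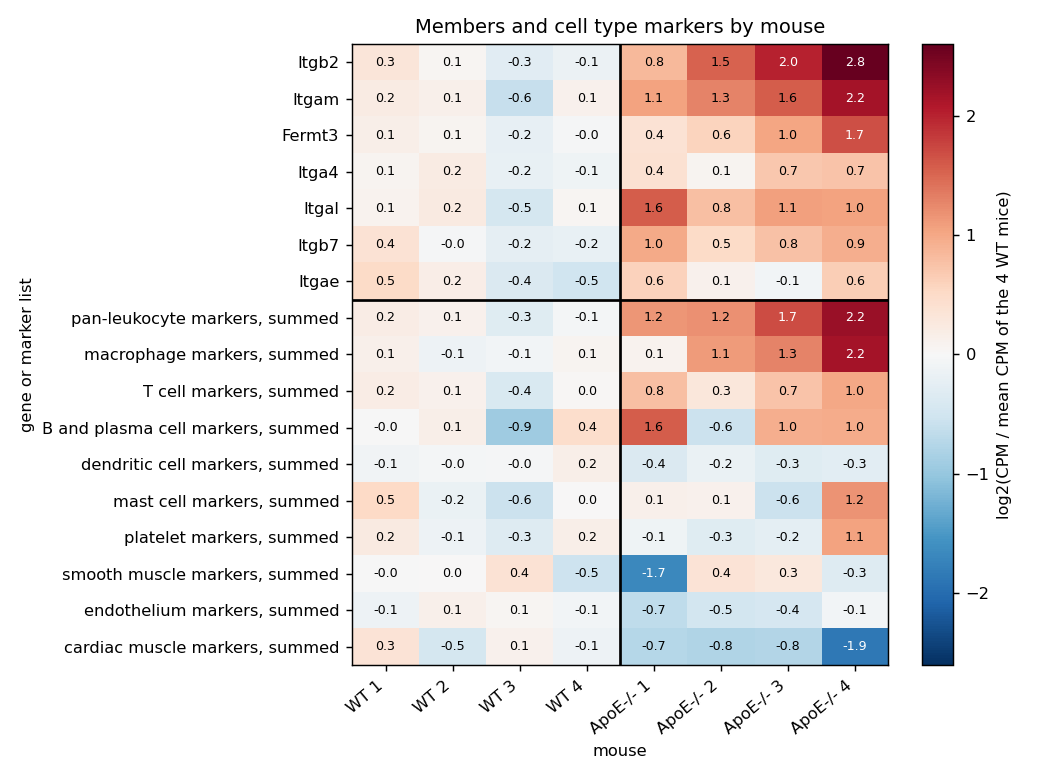
Log2 of CPM over the mean CPM of the 4 WT mice, for 7 members (upper rows) and for summed cell type markers (lower rows), in each of the 8 mice (columns). Colour and the printed number give the same value. Within the ApoE-/- group Itgb2, Itgam and Fermt3 are lowest in mouse 1 and highest in mouse 4, as the pan-leukocyte and macrophage rows are. The T cell, mast cell and platelet rows are also highest in mouse 4. Itgal is highest in ApoE-/- 1, as is the row of B and plasma cell markers, and Itgb7 is nearly level in ApoE-/- 1 and 4 (0.98 and 0.95).

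Among all tested genes other than the members, the 3 whose log2 CPM over the 8 mice was most like each member were picked out by Pearson's r. Itgb2 was nearest to Nckap1l, the Hem-1 subunit of the leukocyte WAVE complex (r = 0.997), Cd300c2 and Marchf1. Itgam was nearest to Myo1g, a myosin of blood cells, Slc7a11 and Dock2, an activator of Rac in leukocytes. Fermt3 was nearest to the complement genes C1qa and C1qc and to Tlr7. Itgal was nearest to Arl4c, Orai2 and Pik3cd, which encodes a PI3K subunit of leukocytes. Itgb7 was nearest to Il1b, Man1c1 and Il18rap. Itgae was nearest to Syndig1, Lck, the T cell kinase, and Efna2, and Itga4 to Ptpre, Fam83f and Atp1b3. The r values of these 21 genes lay between 0.923 and 0.997. They are across mice of both genotypes, so a difference between genotypes alone raises them, and they are given with no test.

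The other genes of the integrin pathway were read from 4 lists with 61 genes, of which 59 were tested and 3 called by edgeR, all higher, against 0.371% of all tested genes. Of 19 other integrin subunits Itgax alone passed, and the median log2 fold change was 0.28. The next in size were Itgb6 at -1.16, Itga11, a collagen receptor chain, at 0.90 and Itgb8 at 0.63, with edgeR adjusted p of 0.596, 0.206 and 0.751. Of 11 tested ligands of the leukocyte integrins (Icam4 and Madcam1 were too low) 0 passed in edgeR, at a median of 0.30, with 3 higher and 2 lower at an unadjusted p under 0.05 (11.4% of all tested genes in either direction), and DESeq2 called 2 higher and 1 lower, where it called 4.81% of all tested genes in either direction. Vcam1, the endothelial ligand of VLA-4, was at 355 ± 161 CPM in ApoE-/- aortas and 86.3 ± 15.98 CPM in WT mice (SD, n = 4), without overlap, with a log2 fold change of 2.04 and an edgeR adjusted p of 0.0526, just above the threshold, and a DESeq2 adjusted p of 1.36e-06. Fn1, which encodes fibronectin, C3, the source of the Mac-1 ligand iC3b, and Thy1 followed with log2 fold changes of 1.01, 0.96 and 0.93 and edgeR adjusted p of 0.517, 0.241 and 0.433. Of these, C3 alone did not overlap between genotypes and passed in DESeq2 (adjusted p = 0.0342). Jam2 and F11r, junction proteins, were lower without overlap, with log2 fold changes of -0.35 and -0.36 (edgeR adjusted p = 0.136 and 0.237, DESeq2 adjusted p = 0.00104 and 0.0557). Icam1, the main ligand of LFA-1, was at 0.30 (edgeR adjusted p = 0.650).

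Of 17 genes of inside-out activation, which carry the signal from the cell interior to the integrin, 0 passed in edgeR and 0 in DESeq2, and the median was 0.09. At an unadjusted p under 0.05 there were 2, both higher, where 7.19% of all tested genes were higher and 11.4% were under it in either direction. The largest were Fyb at 0.64, Fermt1 at -0.57, Dok1 and Rassf5, each at 0.53. Of 12 genes of outside-in signalling, which act once the integrin has bound, 2 passed in edgeR and 7 in DESeq2, all higher, against 0.371% and 3.12% of all tested genes, and the median was 1.18. Fgr, a Src family kinase of myeloid cells, rose by 2.79 on the log2 scale (SE 0.35, edgeR adjusted p = 0.0355) and Vav1, an exchange factor of blood cells, by 1.94 (SE 0.30, adjusted p = 0.0462). Tyrobp, the adaptor DAP12, had 2.03 (edgeR adjusted p = 0.0796). With Itgax there were 3 edgeR calls in these lists. Without ApoE-/- replicate 1 there were 11, all higher, against 2.75% of all tested genes, and without any of the other 7 mice there were 0, against at most 0.112%.

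**Figure D5:**
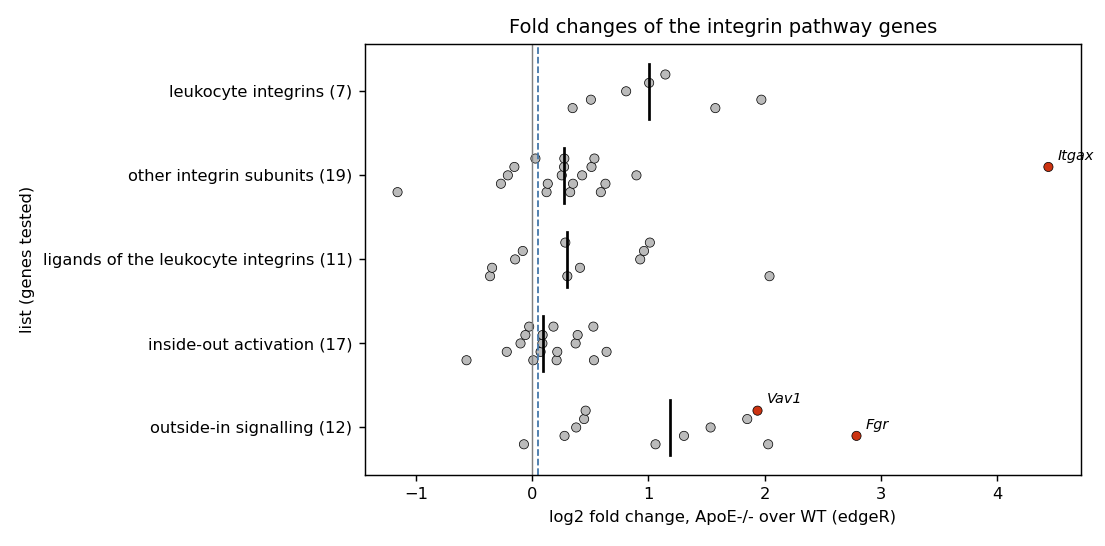
Log2 fold change, ApoE-/- over WT (x axis, edgeR), of each tested gene in the list of members and in 4 lists of other pathway genes (y axis, with the number tested). Points are genes, red where the edgeR adjusted p was under 0.05, the black bar is the median of a list and the dashed line the median of all tested genes, 0.05. Itgax, Fgr and Vav1 are the red points, and the medians run from 0.09 for inside-out activation to 1.18 for outside-in signalling.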

How the data were processed

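RNA from whole aortas of 4 ApoE-/- and 4 WT mice was sequenced as paired-end 50-base reads from ribodepleted, stranded total RNA libraries amplified by 14 cycles of PCR. The authors deposited 1 table per mouse with raw counts for each gene, given in read pairs, neither normalized nor pooled, and the tables are titled as unique and stranded. The submitters' processing notes name TopHat2, HTSeq, GRCm38 and mm10, and versions were not given in the sources used here. Pairs without a gene, ambiguous or aligned to several places were 64.4% to 67.7% of all in ApoE-/- and 69.8% to 72.1% in WT libraries and were left out of library sizes and tests. PCR copies are not marked, so limits from counts cover counting error only.

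Counts were filtered with filterByExpr and scaled by TMM in edgeR 4.0.16 (R 4.3.3), and genotypes were compared with the quasi-likelihood F test (robust, two-sided, Benjamini-Hochberg over all 15077 tested genes, threshold 0.05). The SE is the fold change divided by the square root of F. CPM is relative to TMM-scaled gene counts, and log2 CPM used a prior count of 2. Heterodimer ratios, with 0.5 counts added, were compared by exact permutation. Alternatives were DESeq2 1.42.0, its size factors, no filter, a replicate block, 2 counts added, and leaving out each mouse, also within DESeq2, which was chosen after seeing the data. Positions and exons came from GENCODE M21, in which 21817 of 21859 gene identifiers were found without version numbers, and lists and sequences were handled in Python 3.11.15. edgeR and DESeq2 were first tested on simulated counts with known changes. There a larger share of DESeq2's calls than of edgeR's was false, well above what the threshold of 0.05 allows.

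The members and lists were chosen with earlier results of these data known. The genes named are the 8 members, Apoe, Itgax, Itgb1, called or largest-change genes of the lists (up to 4 per list), and the 3 genes most like each member. Fermt2, Tln1, Icam1, Acta2, Jam2, F11r, Jchain, Zbtb46 and Clec9a, and the markers and ligands too low to test, were named after their values were seen. 1 gene that this rule would name is not reported here.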

Additional observations from a re-analysis of the deposited data

Results flagged for a closer look

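Among 58 groups of 4 mice in which the highest or lowest mouse was compared with the others, 5 had a mouse whose gap to its nearest neighbour took a larger share of the whole range than Dixon's 95% critical value. Chance gives about 1 in 20, or 2.9 of 58. Itgam was at 1.44 CPM in WT replicate 3 against 2.35 to 2.52 CPM in the other WT mice (share 0.835). The log2 ratio of Itgae to Itgb7 was -2.32 in ApoE-/- replicate 3 against -1.89 to -1.82 in the other ApoE-/- mice (share 0.862), and that of Itga4 to Itgb1 was -6.24 in WT replicate 3 against -5.71 to -5.61 in the other WT mice (share 0.837). In ApoE-/- replicate 4 the summed platelet markers were 53.9 CPM against 20.8 to 24.1 CPM in the other ApoE-/- mice (share 0.901), and the summed cardiac muscle markers 160 CPM against 335 to 344 CPM (share 0.947).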

How the results depend on the processing

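edgeR called 70 of all tested genes, against 725 with DESeq2, 2 with a replicate block and 0 to 593 when each mouse was left out in turn. Of the members it called 0, against 5 with DESeq2, 0 with the replicate block and 0 to 3 when each mouse was left out. Of the pathway lists it called 3, against 11 with DESeq2, 0 with the replicate block and 0 to 11 when each mouse was left out. The highest value in each of these ranges came without ApoE-/- replicate 1. The cause of these shifts was not tested. Replicate numbers belong to different mice, and deviations of same-numbered mice correlated at 0.06, -0.45, 0.32 and 0.16, so the block is no pairing by design. DESeq2's size factors and the absence of a filter moved no count of calls by over 1.5 times (74 and 63 over all genes). Of 84 refits of single members, 76 kept direction and side of the threshold and 8 gained a call, and none lost its direction. The ratio of Itgad to Itgb2, -0.35, turned to 0.0142 without ApoE-/- replicate 3 and to 0.0597 without WT replicate 3, and lay between -1.002 and 0.0597 with each mouse left out. Of the 6 ratios 0 passed after adjustment, with all mice or with each left out, which says nothing about stability, since at least 4 ratios would have to reach the smallest p for any to pass. With 2 counts added the ratio of Itgad to Itgb2 was -0.96. Of 48 refits without 1 mouse, 3 reached an unadjusted exact permutation p of 0.0286, the smallest that 3 against 4 mice allow, namely Itgal to Itgb2 without ApoE-/- replicate 1 (-1.15), Itgae to Itgb7 without WT replicate 4 (-0.54) and Itga4 to Itgb1 without ApoE-/- replicate 2 (0.83, but 0.29 without ApoE-/- replicate 1), each with an adjusted p of 0.171. The edgeR calls of Itgax, Fgr, Vav1, Ptprc, Lcp1 and Fcgr1 were lost with the replicate block and without any 1 mouse other than ApoE-/- replicate 1, and that of Apoe was kept with the block and in 5 of 8 such fits. Depth limits Itgad, which the filter removed.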
